A study of Mus musculus with 400 samples.

Results

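The genes described here are 44 mouse genes of ribosome biogenesis and the nucleolus, of 33496 genes in the count table. They were chosen by name for their known function, with earlier results of these data known, and sorted here by role. The roles were transcription by RNA polymerase I (4 genes), box C/D small nucleolar ribonucleoproteins (3), box H/ACA small nucleolar ribonucleoproteins (4), abundant nucleolar proteins (4), small subunit processome and 40S assembly (15) and 60S assembly (14). All 44 were in the table, and all were counted in at least 10% of cells, the limit for the comparisons below, which 17217 genes passed in all.

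The data were single-cell transcriptomes of 400 sorted Lgr5-high cells, 1 population, from the proximal small intestine of Lgr5::EGFP-IRES-Cre-ERT2 mice (labelled Lgr5 GFP/+). In these mice the reporter is driven from the Lgr5 locus, a gene of crypt base stem cells, so the cells are those that the reporter and the sort picked out, and 1 Lgr5 copy carries the knock-in in every cell. The mice were matched for age and sex with neither given, and a tamoxifen dose in the labels belongs to lineage tracing, with no label tying it to these cells. No label ties a cell to an animal, so all cells count as 1 sample, and no p-value or standard error over cells was computed. Values over 380 cells with at least 10000 counts are given with their spread over the 10 library sets named in the titles, which hold 36 to 39 of these cells each.

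Ribosomes are built in the nucleolus. RNA polymerase I transcribes the ribosomal RNA precursor, small nucleolar ribonucleoproteins modify it at defined bases, and assembly factors cleave and fold it with ribosomal proteins into the small (40S) and large (60S) subunits. The pathway is known for its high activity in growing and dividing cells, and the transcription factor Myc, which binds the E-box CACGTG with its partner Max, is a known activator of many of its genes. In the intestine, crypt base stem cells divide often, and Mex3a, an RNA-binding protein gene, is the marker by which the study set apart a slowly dividing group among them.

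Because Myc is known to bind the E-box, the promoters of the members were searched for CACGTG, a motif that reads the same on both strands. The windows, from RefSeq on GRCm38.p6, run from 250 bases before to 50 bases after each gene's start, and 40 of the 44 members matched an entry. Bop1, Rrp12, Fbl and Npm1 had no matched entry. The motif was in 8 of 40 member windows (20.0%), against 8.09% of the windows of 27025 genes and 11.2% of those of 11506 genes that reached the 10% limit. The 8 genes were Rrn3, Wdr43, Utp18, Utp20, Tsr1, Pno1, Pes1 and Nop2. Shown are 4 of these windows, 1 for RNA polymerase I, 1 for the small subunit processome and 2 for 60S assembly, each 5′ to 3′ on the gene's strand with CACGTG in capitals.

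Rrn3 (chr16:13780449-13780748, plus strand): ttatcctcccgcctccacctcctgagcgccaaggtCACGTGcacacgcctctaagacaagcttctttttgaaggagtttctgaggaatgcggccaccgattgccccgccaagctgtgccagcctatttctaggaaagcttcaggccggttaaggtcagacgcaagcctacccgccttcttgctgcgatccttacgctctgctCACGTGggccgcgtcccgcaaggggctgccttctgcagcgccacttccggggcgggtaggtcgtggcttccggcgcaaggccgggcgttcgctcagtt
Utp18 (chr11:93885717-93886016, minus strand): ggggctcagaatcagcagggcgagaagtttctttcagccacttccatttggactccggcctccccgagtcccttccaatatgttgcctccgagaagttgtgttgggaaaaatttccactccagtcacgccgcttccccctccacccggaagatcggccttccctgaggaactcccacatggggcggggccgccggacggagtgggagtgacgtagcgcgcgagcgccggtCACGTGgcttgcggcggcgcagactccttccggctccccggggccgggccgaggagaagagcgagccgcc
Nop2 (chr6:125131633-125131932, plus strand): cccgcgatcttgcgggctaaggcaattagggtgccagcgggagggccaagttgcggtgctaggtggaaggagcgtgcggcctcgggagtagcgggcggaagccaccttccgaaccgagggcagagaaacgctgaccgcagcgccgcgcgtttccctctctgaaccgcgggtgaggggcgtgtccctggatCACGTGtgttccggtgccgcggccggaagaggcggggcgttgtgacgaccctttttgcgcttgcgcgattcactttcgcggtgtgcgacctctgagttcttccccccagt
Pes1 (chr11:3963725-3964024, plus strand): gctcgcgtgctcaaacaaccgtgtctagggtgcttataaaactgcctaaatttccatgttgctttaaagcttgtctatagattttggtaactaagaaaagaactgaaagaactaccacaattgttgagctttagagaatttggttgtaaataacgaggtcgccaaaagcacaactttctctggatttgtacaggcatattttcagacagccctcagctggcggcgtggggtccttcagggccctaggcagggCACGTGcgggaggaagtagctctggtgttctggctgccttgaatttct

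Rrn3, whose protein brings RNA polymerase I to the ribosomal DNA promoter, was the member with 2 copies of the motif, 215 and 48 bases before the start. The copy lay 20 bases before the start in Utp18, a component of the small subunit processome, and 60 bases before it in Nop2, a ribosomal RNA methyltransferase. In Pes1, a scaffold of the PeBoW complex of 60S assembly, it lay just after the start. A match of letters is a description of the window and not a binding site.

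The members were widely detected. Of the 44 genes, 40 had a count in more than 50% of the 380 cells and 12 (27.3%) in at least 90%, against 10.2% of the 17217 genes in at least 90%. The median share of cells with a count was 70.3% over the members and 43.2% over the 17217 genes. Per kb of the reference coding transcript, the median level was 28.01 CPM per kb over the members and 11.4 CPM per kb over 13774 genes with a coding transcript. Levels of different genes are compared below per length. Whether counts come from whole transcripts or from their ends is not stated in the labels, and over the 13774 genes mean CPM and transcript length had a Spearman correlation of -0.010. Orders per length thus rest on that scaling, and the CPM of each gene ranked below is given beside it.

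**Figure D1:**
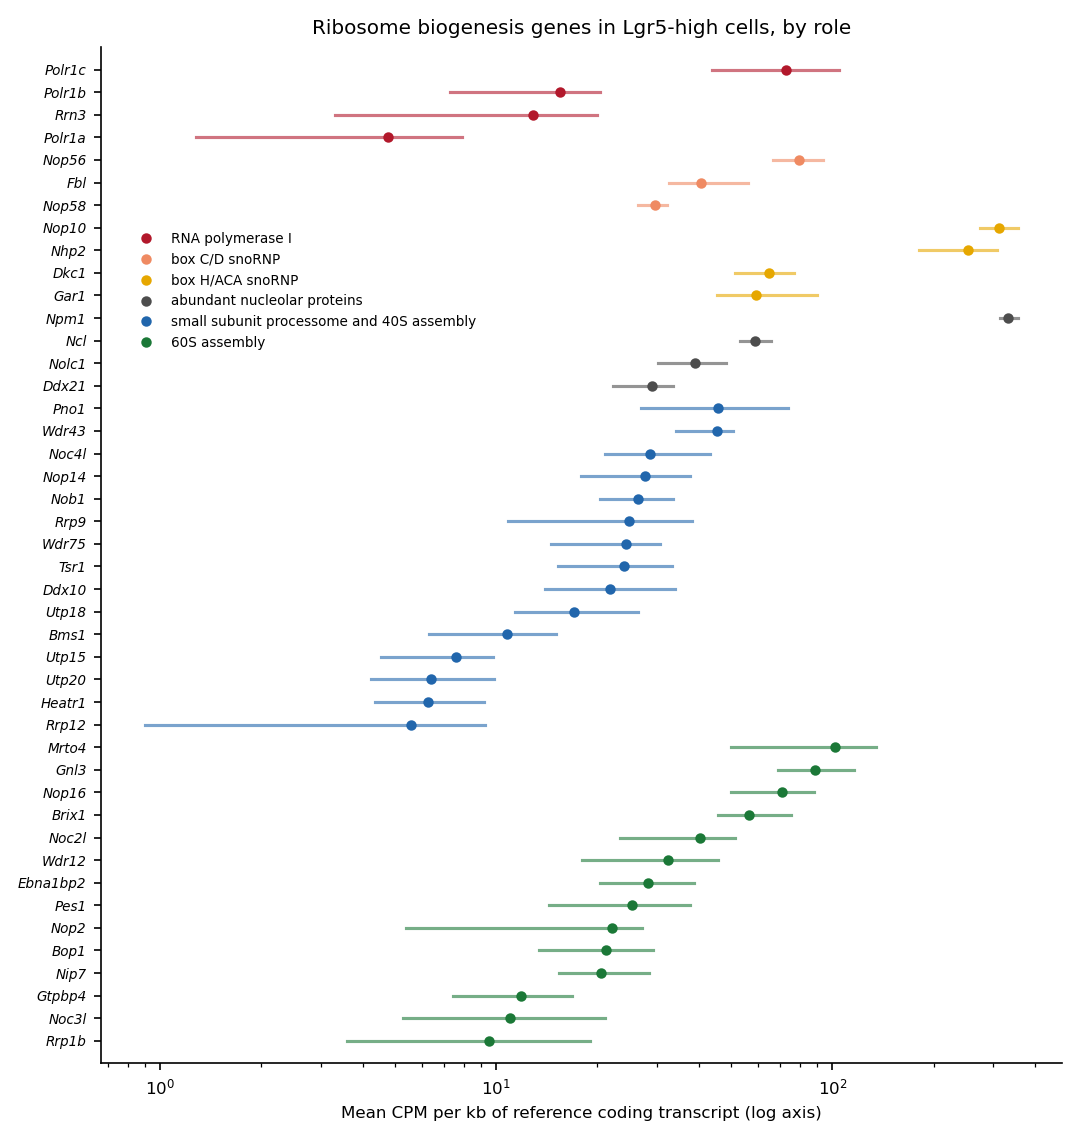
Mean level of each member in CPM per kb of its reference coding transcript (log axis) over 380 cells, by role; bars run from the lowest to the highest mean of the 10 library sets. Npm1, Nop10 and Nhp2 stand at 254 CPM per kb or more, and Polr1a is the lowest at 4.75 CPM per kb.

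Npm1 and Ncl were counted in 380 of 380 cells. Npm1, or nucleophosmin, a histone and ribosome assembly chaperone of the granular nucleolus (chr11:33152287-33163206, minus strand), had the highest level per length, 334 CPM per kb. Its unscaled level was 546 ± 23.9 CPM (SD over 10 library sets), and single cells ran between 201 and 1153 CPM with a median of 530.2. Ncl, or nucleolin (chr1:86344719-86359400, minus strand), averaged 481 ± 32.9 CPM, with cells between 124 and 988 CPM, and stood at 58.7 CPM per kb over an annotated transcript of 8202 bases. The unscaled order thus placed Ncl next to Npm1, and the order per length did not. Both genes were present in every cell, and no cell had more than 28 counts of Npm1 or 26 of Ncl. The highest count of any gene in the table was 36, and whether high counts are compressed was not tested.

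The box H/ACA proteins, which guide pseudouridylation of ribosomal RNA, held the next places. Nop10 was at 313 CPM per kb (347 ± 34.1 CPM, counted in 379 of 380 cells) and Nhp2 at 254 CPM per kb (265 ± 37.6 CPM, in 375 cells). The pseudouridine synthase Dkc1, of the same particle, was lower, at 64.7 CPM per kb (181 ± 23.2 CPM), as was Gar1, at 59.1 CPM per kb (75.1 ± 18.4 CPM). Genes of 1 particle thus differed several-fold in transcript level per length, with no overlap on that scale between the library-set ranges of Nop10 or Nhp2 and those of Dkc1 or Gar1.

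In the box C/D particle, which guides ribose methylation, Nop56 was the highest at 79.6 CPM per kb, Fbl, or fibrillarin, the methyltransferase, stood at 40.6 CPM per kb, and Nop58 at 29.7 CPM per kb. On the CPM scale the order was different, with Nop58 at 282 ± 19.2 CPM, Nop56 at 149 ± 17.3 CPM and Fbl at 48.6 ± 8.42 CPM, since the annotated Nop58 transcript has 9507 bases. 

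Among 60S assembly factors the highest per length was Mrto4, related to the ribosomal stalk protein P0, at 102 CPM per kb (94.6 ± 23.8 CPM), followed by Gnl3, or nucleostemin, a nucleolar GTPase known from stem and cancer cells, at 89.1 CPM per kb. Gnl3 averaged 173 ± 28.2 CPM, with cells between 0 and 768 CPM and a median of 157 CPM, and was counted in 94.5% of cells. Nop16 was at 70.9 CPM per kb (125 ± 22.5 CPM), and the lowest 60S gene per length was Rrp1b at 9.54 CPM per kb (46.5 ± 21.9 CPM). The median was 26.8 CPM per kb over the 60S genes and 24.04 CPM per kb over the small subunit genes, against 159 CPM per kb over the H/ACA proteins.

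The small subunit processome held most of the sparsely counted members. Pno1, a 40S assembly factor, and Wdr43, a processome subunit, were the highest of the role per length, close together at 45.6 and 45.3 CPM per kb. On the CPM scale Wdr43 was the higher, at 156 ± 17.7 CPM against 70.3 ± 26.04 CPM for Pno1. Rrp12, a factor in export and maturation of both subunits in yeast, was the lowest at 5.59 CPM per kb (24.2 ± 11.1 CPM). Rrp12 was counted in 33.4% of cells (95% exact binomial interval 28.7 to 38.4%, counting error only), the lowest share of all 44. Utp15 (43.7%), Rrp9 (45.5%) and, of the 60S genes, Noc3l (48.7%) were the other members in fewer than 50% of cells. For these 4 genes the median cell had no count at full depth, and a cell with none cannot be told from one whose transcripts were not captured.

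RNA polymerase I genes were widely spread per length and less so in CPM. Polr1c, a subunit that RNA polymerase III shares, was at 73.0 CPM per kb (95.9 ± 26.6 CPM), while Polr1b, the second largest subunit, was at 15.4 CPM per kb (61.7 ± 16.8 CPM) and Rrn3 at 12.8 CPM per kb (46.02 ± 17.3 CPM). Polr1a, the catalytic largest subunit (chr6:71909053-71984935, plus strand), was at 4.75 CPM per kb, the lowest of all members on that scale. In CPM it was at 43.8 ± 17.8, above Rrp12, Utp15 (31.2 CPM), Rrp9 (39.3 CPM) and Heatr1 (42.5 CPM). Polr1a had a count in 54.7% of cells, with cells between 0 and 352 CPM, a median of 24.7 and library-set means between 11.8 and 72.8 CPM. The ranges of the library sets of Polr1a, Polr1b and Rrn3 overlapped on the per-length scale, so the order of these 3 is not set beyond their spread.

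Some counts are uncertain by annotation. The exons of 17 members overlap an exon of another gene, on the other strand in each case, such as Rrp9 with Parp3 and Polr1a with Gm26628, and whether counting used strand is not known here. Within 7 members lie 21 small nucleolar RNA genes, 5 of them in Nop56, 4 in Nop58, 3 each in Ncl, Wdr43 and Gnl3, 2 in Tsr1 and 1 in Dkc1. Pseudogenes named after Mrto4 (2) and Gtpbp4 (7) could share reads with their parents.

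The summed level of the 44 genes was 5096 ± 258 CPM (SD over 10 library sets), or 0.510% of all counts. Library-set means lay between 4691 and 5417 CPM and single cells between 2203 and 8252 CPM, a coefficient of variation of 18.9%. Npm1 and Ncl made up 20.2% of the sum. The number of members counted in a cell was 33 in the median and between 12 and 42, and no cell had counts of all 44. To remove depth, 342 cells were thinned at random to 19169 counts each, leaving out the 38 shallower cells, and at that depth the median was 29 members and the range 16 to 38.

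From cell to cell, the members varied about as much as other genes of their level. The log10 residual of variance over mean from the trend of all genes had a median of 0.017 over the members, with 26 of 44 above the trend, against a median of 0 with 49.7% above it over all genes. The most even members for their level were Fbl (residual -0.119), Heatr1 (-0.108), Npm1 (-0.086) and Brix1 (-0.073). Fbl had a variance over mean of 1.57 where the trend was 2.06, and Npm1 had 0.81 where it was 0.99. The most uneven was Noc3l (residual 0.123, variance over mean 2.74 where the trend was 2.06). Myc itself lay close to the trend, with a variance over mean of 2.14 where the trend was 2.01.

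Pairs of members co-varied weakly. Over the 946 pairs, the median Pearson r of log2(thinned count + 1) across 342 cells was 0.031, with a range between -0.136 and 0.228, and 67.7% of pairs were above 0. Over all pairs of genes the median was -0.0005 with 49.7% above 0, and over pairs of the 9427 genes at or above the lowest member's mean thinned count it was 0.0018 with 51.0% above 0. High values were scarcer among members: 4 pairs (0.423%) exceeded 0.2, against 2.01% of all pairs and 1.44% of pairs of the 9427 genes. The members were thus shifted to slightly positive values as a body, without tight pairs. Cells share a library set, and the thinned total is equal for all of them. These r values describe sparse counts and are not tested.

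**Figure D2:**
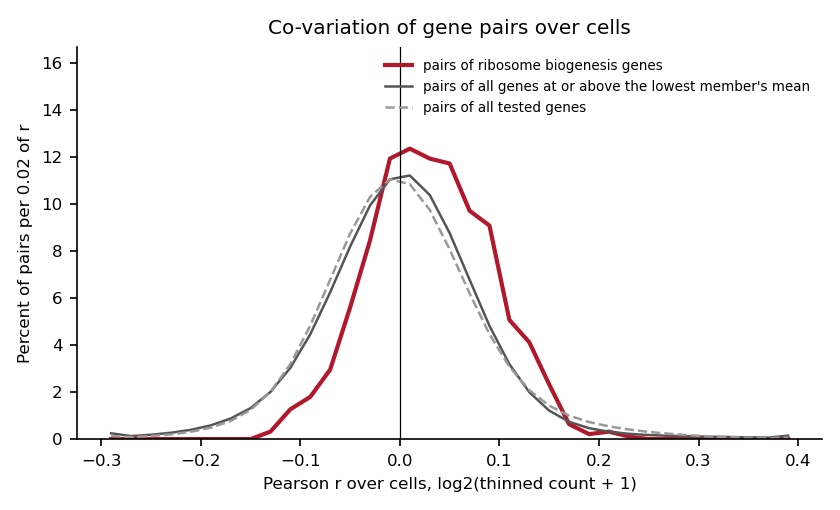
Distribution of Pearson r across 342 thinned cells for the 946 pairs of members, for pairs of the 9427 genes at or above the lowest member's mean and for pairs of all genes, as the percent of pairs per interval of r, with the tails beyond the axis in the end intervals. The member curve lies to the right of the others, with a median of 0.031, and has 0.423% of pairs over 0.2.

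The 5 pairs with the highest r were Npm1 with Nop16 (0.228), Nop10 with Npm1 (0.208), Wdr43 with Tsr1 (0.207), Nop56 with Gar1 (0.201) and Fbl with Wdr43 (0.184). With total counts and genes per cell removed, the first 2 pairs had 0.138 and 0.101, while Wdr43 with Tsr1 had 0.197 and Nop56 with Gar1 0.180. Pooled over roles, shared role did not mark the pairs, since the median r was 0.030 over 217 pairs of the same role and 0.032 over pairs of different roles. Single roles ran from 0.016 over 105 small subunit pairs to 0.061 over 6 box H/ACA pairs, with 0.037 over 91 pairs of 60S assembly. Set against the mean of the other 43 members, the highest r values were those of Gnl3 (0.264), Brix1 (0.249), Gar1 (0.246), Nhp2 (0.242) and Nop16 (0.240), and the median over members was 0.139. The lowest were Heatr1 (-0.081) and Utp20 (-0.015), large scaffold proteins of the small subunit processome, with Ddx10 (-0.004), a nucleolar helicase, and Bop1 (0.009), the partner of Pes1.

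The number of genes counted in a cell moved with the members more closely than Myc itself or the phase scores did. Across 342 cells, r between the summed thinned counts of the members (the member sum in the correlations that follow) and genes per cell at equal depth was -0.644, and between -0.740 and -0.427 within the 10 library sets. In quartiles of genes per cell, from the fewest to the most, the mean summed level was 5617, 5431, 5238 and 4150 CPM. The step was thus concentrated in the quartile with the most genes. Total counts had r = 0.024 with the sum. Of the 44 members, 38 had a negative r with genes per cell, with Npm1 (-0.443), Ncl (-0.295) and Nop16 (-0.295) the most negative and Heatr1 (0.128) the highest. The 22 members at or above the median member mean count had a median r of -0.175 and 0 above 0, against a median of -0.124 with 23.9% above 0 over the 3956 genes at or above that level. Abundant genes at large thus shared the negative sign.

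**Figure D3:**
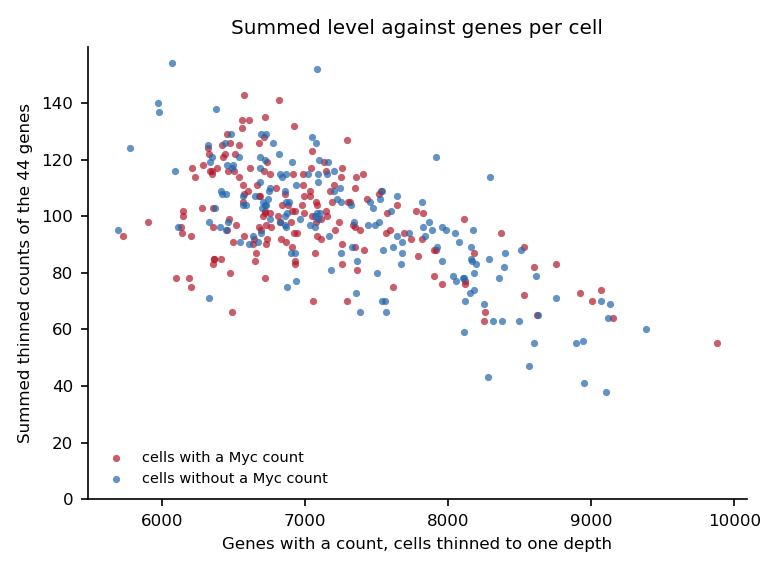
Summed thinned counts of the 44 members against genes with a count, both at 19169 counts per cell; each point is 1 of 342 cells, red with a Myc count and blue without. Cells with more genes have lower sums, r = -0.644.

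Markers of some other cell types ran against the member sum, and others hardly moved with it. As sums, stromal markers had r = -0.326, tuft markers -0.225 and enteroendocrine markers -0.215. Goblet, enterocyte and Paneth markers had -0.065, -0.057 and 0.061. The summed level of 4 endothelial markers had r = -0.497 with the member sum, and that of 5 immune markers -0.382, and after total counts and genes per cell were removed by regression these were -0.094 and -0.089. Stem cell markers as a sum had r = 0.390 before and 0.109 after this step, and Lgr5 alone -0.042 and 0.017. Lgr5, Olfm4 and Smoc2 were counted in 97.9%, 97.9% and all of the cells, and the enterocyte gene Alpi in 4.74%, while Defa24 of Paneth cells was counted in every cell. The part of other cells' RNA in the member values was not tested.

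Of the gene lists summed, the closest to the members was that of 22 Myc targets outside ribosome biogenesis, among them Odc1, of polyamine synthesis, and Cad and Paics, of nucleotide synthesis. Its sum had r = 0.677 with the member sum, that of 100 other ribosome biogenesis genes 0.640 and that of 84 ribosomal protein genes 0.607. With total counts and genes per cell removed, these were 0.375, 0.308 and 0.262. Of 7442 single genes counted in 50% of cells or more, the 10 with the highest r were Gm9625 (0.520), Cox5b (0.511), Rpl34-ps1 (0.477), Rps6-ps4 (0.476), Gm6472 (0.470), Eif5a (0.468), Eif1-ps1 (0.467), Gm14164 (0.466), Banf1 (0.465) and Gm10275 (0.465). Annotated pseudogenes made up 6 of these 10, whose counts may hold reads of their parent genes. Among the 3 coding genes, Cox5b encodes a subunit of cytochrome c oxidase, Eif5a a translation factor and Banf1 a chromatin-binding protein.

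The next question was whether members were higher in cells with Myc. Myc had a count in 59.2% of 380 cells (225 cells) and averaged 63.7 CPM. After thinning, 174 cells with at least 1 Myc count were compared with 168 cells without, by log2 ratios of their mean CPM at full depth (pseudocount 1 CPM). Cells called without Myc are those with no count at that depth, and mean Myc was 118 CPM in the class with Myc and 9.70 CPM in the class without.

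The members differed little by Myc. Their summed level was 3194 to 7336 CPM with a median of 5184 CPM in cells with Myc, against 2203 to 8066 CPM with a median of 5140 CPM in cells without Myc. The cell ranges thus overlapped almost wholly, and the ratio of the means (5217 against 4993 CPM) was 0.06 ± 0.10 on the log2 scale (SD over 10 library sets). The median log2 ratio over the 44 members was 0.07 ± 0.10, with 29 members above 0 and 8 of 10 library sets above 0, and over all 17217 genes it was -0.04. At least 1.2-fold higher was 1 member (2.27%), where 15.2% of all genes were, and at least 1.2-fold lower were 0 members, where 33.1% of all genes were. In 20 other random thinnings the number higher was 0 to 7, so neither this count nor its distance from 15.2% is stable. Among the 9529 genes at or above the lowest member's mean count at full depth, 15.3% were higher and 16.6% lower by this fold, and their median was 0.05. The members' median thus lay next to that of these genes, which are not matched to the members in level.

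The 1 member past 1.2-fold in the thinning reported was Fbl, at 54.8 CPM in cells with Myc and 45.0 CPM in cells without Myc (log2 ratio 0.28 ± 0.69, above 0 in 6 of 10 library sets). Its thinned counts ran between 0 and 6 in each class, with medians of 1 in cells with Myc and 0 in cells without Myc. Next came Mrto4 (0.25 ± 0.50), Utp18 (0.23 ± 0.44) and Ebna1bp2 (0.22 ± 0.57), a 60S assembly factor. The lowest log2 ratios were those of Noc3l (-0.20 ± 1.10), Rrp9 (-0.17 ± 0.76), Rrp12 (-0.17 ± 0.96) and Rrp1b (-0.14 ± 0.65). None of these 8 ratios exceeded its spread over library sets. By role, the median was 0.12 for 60S assembly (11 of 14 above 0), 0.11 for box C/D (3 of 3), 0.09 for box H/ACA (3 of 4), 0.01 for RNA polymerase I (2 of 4), 0.01 for the small subunit (8 of 15) and -0.002 for the abundant nucleolar proteins (2 of 4).

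**Figure D4:**
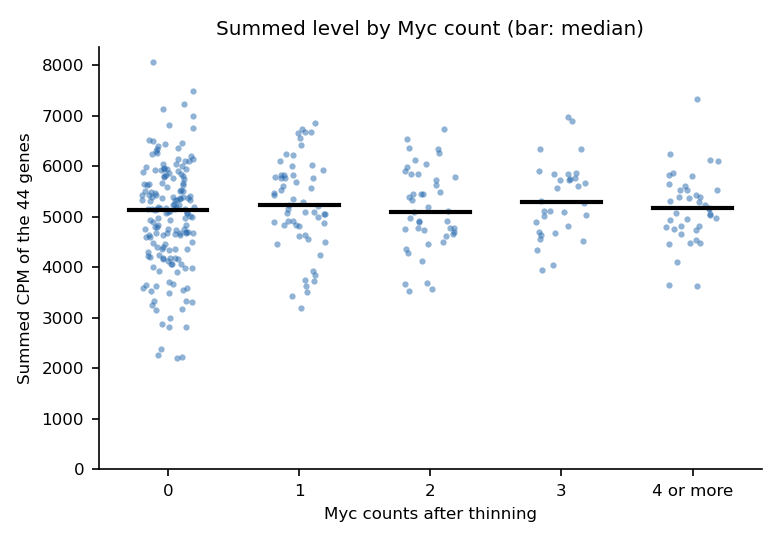
Summed level of the 44 members (CPM) in 342 cells grouped by thinned Myc count; points are cells and bars the group medians. Medians lie between 5092 and 5286 CPM in all 5 groups.

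More Myc did not go with more of the members in steps. The median summed level was 5140, 5221, 5092, 5286 and 5162 CPM in cells with 0, 1, 2, 3 and 4 or more thinned Myc counts (168, 58, 44, 32 and 40 cells). Across cells, r between Myc and the member sum was 0.107 (Spearman 0.064), and -0.086 with total counts and genes per cell removed. Cells with Myc also had a median of 6908 genes at equal depth against 7163 in cells without Myc, and the share of cells with Myc was 62.8, 54.8, 52.3 and 33.7% in the quartiles from the fewest to the most genes. Within these quartiles the median member log2 ratio averaged 0.01, against 0.004 for all genes and 0.02 for the 9529 genes. Endothelial markers stood at 43.7 CPM as a sum in cells with Myc (0 to 416 CPM, median 24.4) and 74.9 CPM in cells without Myc (0 to 651 CPM, median 49.1), and none of their 4 genes passed 1.2-fold higher while 3 were lower. Of all genes, 33.1% were lower by this fold. The part of genes per cell and of other cells' RNA in the ratio was not tested beyond the values given.

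Members with the E-box in their promoter window were not higher by Myc than those without it. The 8 members with the motif had a median log2 ratio of -0.01 (3 above 0) by Myc, and the 32 without it 0.08 (23 above 0). Of the promoters printed, Rrn3 had -0.05, Utp18 0.23, Nop2 0.19 and Pes1 0.18. Those with the motif that were not printed were all below 0, with Wdr43 at -0.07, Utp20 at -0.06, Tsr1 at -0.02 and Pno1 at -0.01. The other 100 ribosome biogenesis genes had a median of 0.14, with 74 above 0, 18 at least 1.2-fold higher and 6 at least 1.2-fold lower. Of 22 Myc targets outside ribosome biogenesis, 16 were above 0 with a median of 0.10, and 3 were at least 1.2-fold higher and 0 lower. By this fold, 15.2% of all genes were higher by Myc and 33.1% lower.

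Cell cycle phase was read from scores over 46 S phase genes and 51 G2 and M phase genes, and the top tertile of each score (114 cells) was compared with its bottom tertile (114 cells). The tertiles are ranges of a score and not cell types, and no phase call of a cell was made.

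By S phase score, the members were on the whole slightly higher in the top tertile. The summed level was 2806 to 6998 CPM with a median of 5436 CPM in the top tertile, against 2203 to 8066 CPM with a median of 4866 CPM in the bottom tertile, and the classes overlapped. The median log2 ratio over members was 0.14 ± 0.13, with 34 of 44 above 0 and 9 of 10 library sets above 0, where all genes had a median of -0.04 and the 9529 genes one of 0.06. Of the members, 14 (31.8%) were at least 1.2-fold higher, against 20.9% of all genes, and 0 at least 1.2-fold lower, against 34.6%. Of the 9529 genes, 21.9% were higher and 18.3% lower. The other 100 ribosome biogenesis genes had 31 higher and 6 lower, with a median of 0.15.

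By role, the highest median in this comparison was that of RNA polymerase I, 0.35 ± 0.36, within its spread over library sets. All 4 of its genes had a positive log2 ratio, of which Polr1c (0.24 ± 0.46) and Rrn3 (0.04 ± 1.21) were the lower. Polr1a averaged 54.5 CPM in the top S phase tertile and 31.3 CPM in the bottom tertile (log2 ratio 0.78 ± 0.86, above 0 in 7 of 10 library sets), and its thinned count was 0 to 9 with a median of 0 in the top tertile and 0 to 5 with a median of 0 in the bottom tertile. Most cells of either tertile therefore had no Polr1a count at this depth, and the difference lay in the share with a count, 43.9% against 36.8%, and in how many counts they had. Polr1b (0.47 ± 1.07), Rrp1b (0.42 ± 0.86) and Bms1, a GTPase of the small subunit processome (0.42 ± 1.99), came next, all within their spread.

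Wdr12, the third protein of the PeBoW complex, was the 1 member whose S phase ratio exceeded its spread over library sets in the setting reported. It averaged 118 CPM in the top tertile and 89.8 CPM in the bottom tertile (0.39 ± 0.31, above 0 in 8 of 10 library sets). Under other settings its ratio went as low as 0.22, within that spread. Its partners Pes1 and Bop1 had 0.19 and 0.27. The lowest members were Nop14 (-0.21 ± 0.96), a small subunit processome factor, Rrp9 (-0.21 ± 1.19), the U3 small nucleolar RNA binding protein, Ebna1bp2 (-0.07 ± 0.55) and Nip7 (-0.06 ± 0.69), a 60S assembly factor.

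By G2 and M phase score, the summed member level was 3647 to 6977 CPM with a median of 5297 CPM in the top tertile, against 2203 to 7134 CPM with a median of 4994 CPM in the bottom tertile. The median log2 ratio over members was 0.16 ± 0.15, with 35 of 44 above 0 and 9 of 10 library sets above 0, where all genes had a median of -0.07 and the 9529 genes one of 0.10. At least 1.2-fold higher were 14 members (31.8%), against 24.9% of all genes, and at least 1.2-fold lower were 2 members (4.55%), against 40.1%. Of the 9529 genes, 30.2% were higher and 21.3% lower, so the share of members that were higher was near that of genes counted at least as often as the lowest member. Of the other 100 ribosome biogenesis genes, 44 were higher and 10 lower by the same fold, with a median of 0.22. The classes again overlapped in single cells.

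Bms1 was again among the 4 highest members, and the other 3 were others than by S phase. Rrp9 averaged 51.5 CPM in the top G2 and M tertile and 25.03 CPM in the bottom tertile (1.01 ± 1.18, above 0 in 9 of 10 library sets), and had a thinned count in 47.4% of cells of the top tertile and 31.6% of cells of the bottom tertile. Nip7 (0.73 ± 1.08), Bms1 (0.69 ± 1.13) and Rrp12 (0.62 ± 1.70) followed. Past their spread over library sets in the setting reported were Noc4l, a small subunit factor (68.8 CPM in the top and 46.5 CPM in the bottom tertile, 0.55 ± 0.54, above 0 in 9 of 10 sets), and Nop16 (136 CPM in the top and 102 CPM in the bottom tertile, 0.40 ± 0.37, in 8 of 10). Under other settings these ratios went as low as 0.29 for Noc4l and 0.25 for Nop16, within the spread. The lowest were Rrp1b (-0.34 ± 0.97) and Polr1a (-0.32 ± 0.85), both among the highest in S phase, then Utp20 (-0.19 ± 0.66) and Heatr1 (-0.12 ± 1.06).

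**Figure D5:**
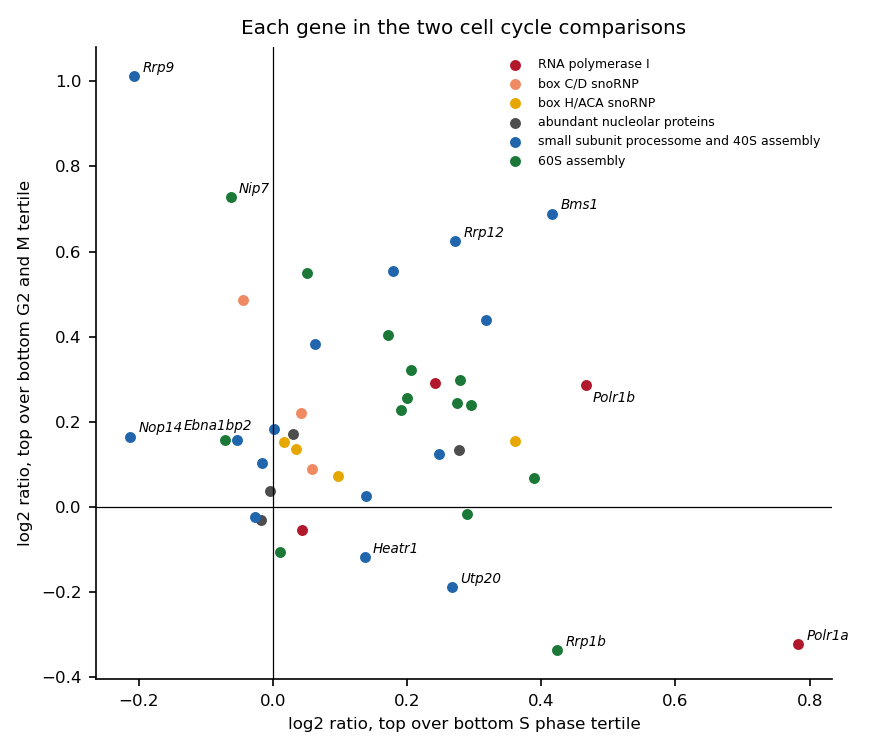
Log2 ratio of each member by S phase score (horizontal) and by G2 and M phase score (vertical), top over bottom tertile, coloured by role. Polr1a and Rrp1b are above 0 by S phase and below 0 by G2 and M phase, and Rrp9 the other way, and 27 members are above 0 on both axes.

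Set side by side, 27 members were above 0 by both scores, 2 were below 0 by both, and 15 had opposite signs. The comparisons share cells, since 27 cells were in both top tertiles and 36 in both bottom tertiles. Polr1a, Rrp1b and Rrp9 were among those of opposite sign, each within its spread over library sets, and the difference between the scores was not tested. By role, the median log2 ratio was 0.24 for 60S assembly and 0.22 for box C/D by G2 and M phase, and 0.20 and 0.04 by S phase. Npm1 was near 0 by each score (-0.02 ± 0.17 by S phase and -0.03 ± 0.13 by G2 and M phase), as was Ncl (-0.004 ± 0.12 and 0.04 ± 0.11).

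Genes per cell moved with the phase scores as well. The median was 6928 genes at equal depth in the top S phase tertile against 7128 in the bottom tertile, and 6890 in the top G2 and M tertile against 7295 in the bottom tertile. Averaged within quartiles of genes per cell, the median member log2 ratio was 0.08 by S phase and 0.10 by G2 and M phase, where the 9529 genes had 0.03 and 0.05. The 4 endothelial markers were all at least 1.2-fold lower in the top tertile by each score, with a sum of 39.5 CPM in the top and 80.0 CPM in the bottom S phase tertile, and 38.7 CPM in the top and 88.0 CPM in the bottom G2 and M tertile. Of all genes, 34.6% were lower by this fold by S phase and 40.1% by G2 and M phase. A count of Myc was found in 61.4% of the top and 43.0% of the bottom S phase tertile, and in 58.8% of the top and 42.1% of the bottom G2 and M tertile. How far these measures enter the member ratios was not tested beyond the quartile values.

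Within tertiles of the scores, the Myc comparison gave small values of mixed sign. The median member log2 ratio, cells with over cells without Myc, was 0.04, 0.08 and -0.01 in the bottom, middle and top S phase tertile, and 0.14, -0.01 and 0.03 in the bottom, middle and top G2 and M tertile. The summed member level in the top S phase tertile was 5305 CPM in 70 cells with Myc and 5371 CPM in 44 cells without Myc. Across all 342 cells, r with the member sum was 0.203 for the S phase score and 0.253 for the G2 and M score, and 0.102 and 0.099 with total counts and genes per cell removed. Of single cycle genes, Mki67 had 0.201, Top2a 0.171 and Pcna 0.126.

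Mex3a, the study's own gate, split 31 cells with a thinned count from 311 without. The members' summed level was 3595 to 7134 CPM with a median of 5579 CPM in cells with Mex3a, against 2203 to 8066 CPM with a median of 5138 CPM in cells without Mex3a. The median log2 ratio over members was 0.14 ± 0.17 (SD over 6 library sets that held 3 or more cells per class, 4 of 6 above 0), with 31 of 44 above 0, where all genes had -0.05 and the 9529 genes 0.0001. The 0.14 is over all cells of both classes, and the mean over those 6 library sets was 0.06, where all genes had -0.21. Of the members, 13 (29.5%) were at least 1.2-fold higher, against 19.1% of all genes, and 4 (9.09%) at least 1.2-fold lower, against 32.1%. In 20 other random thinnings the number higher ran from 9, where 19.3% of all genes were higher, to 17, where 18.3% were. Of the 9529 genes, 16.2% were higher and 20.0% lower. Few cells stand behind this. Restricted to cells with at least 2 Mex3a counts against none, the median was -0.0003 with 12 members higher and 12 lower, where the 9529 genes had -0.02 and all genes -0.09. In that setting 26.8% of all genes were at least 1.2-fold higher and 39.4% lower. In quartiles of genes per cell the median averaged 0.03, where the 9529 genes had -0.07 and all genes -0.17.

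Rrn3 was the highest member by Mex3a. It averaged 76.7 CPM in cells with Mex3a and 41.7 CPM in cells without Mex3a (0.86 ± 0.62, above 0 in 5 of 6 library sets), with thinned counts of 0 to 5 and a median of 1 in cells with Mex3a, against 0 to 7 and a median of 0 in cells without Mex3a. Npm1 (565 CPM in cells with Mex3a and 529 CPM in cells without Mex3a, 0.09 ± 0.09, in 5 of 6) was the other member past its spread over library sets in the setting reported. Under other settings Rrn3 went as low as 0.27 and Npm1 as low as 0.02, within the spread. The lowest was Rrp9 (-0.58 ± 2.32), and the other 100 ribosome biogenesis genes had a median of -0.02 with 49 above 0.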

How the data were processed

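The labels describe crypt cells from the duodenum and jejunum, sorted live by flow cytometry, captured on a Fluidigm C1 HT chip and amplified with a SMARTer kit. The authors deposited whole-number counts per gene and cell, not normalized. Per the submitters' processing notes the build was GRCm38.p4. Not given in the sources used here are the aligner, the counting tool, and any use of strand or molecular identifiers. Total counts per cell ran between 4491 and 70133. From the deposited counts, cells with at least 10000 were kept (380 of 400, median 32112), CPM was computed over all genes, levels per length used the reference coding transcript (CCDS, then APPRIS principal, then support level), and gene symbols came from GENCODE M21 (33219 identifiers matched).

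Doublets were not removed. For classes, scores and co-variation, 342 cells were thinned at random to a depth of 19169 (10th percentile). Ratios used a pseudocount of 1 CPM and a 1.2-fold limit, over 17217 genes counted in 10% of cells or more. Errors are SDs over those library sets that held 3 or more cells per class, and intervals cover counting error only. The library set is the set number of the titles and was used as a technical split.

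Genes given in full were the highest and lowest per role by level per length, the 4 highest and 4 lowest per comparison by Myc and phase, the 5 top pairs and the 5 top members by r, and the 10 genes most like the summed level. Genes whose ratio exceeded its spread over library sets were singled out after their values were seen, as were Rrn3 and Rrp9 by Mex3a. The members and lists were chosen with earlier results of these data known. Other thresholds, scalings, thinning draws and left-out library sets were tried. A stretch of high counts and quartiles of genes per cell were added after seeing the data. Python 3.11.15, numpy 2.4.6, scipy 1.17.1 and pandas 2.3.3 were used, and the scripts were tested on simulated data.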

Additional observations from a re-analysis of the deposited data

How the results depend on the processing

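Of 123 alternative values of the main results, 121 moved by less than 1 SD over library sets. The exceptions were the median r over member pairs, 0.0112 with total counts and genes per cell removed (0.0313 without), and the summed member level, 6062 CPM when scaled to genes with a mean count under 10 (5096 CPM over all genes). For the member medians of the class comparisons 1 SD is wide. It exceeds the median by Myc (0.10 against 0.07) and by Mex3a (0.17 against 0.14), where a fall to 0 stays within it. By S phase (0.13 against 0.14) and by G2 and M phase (0.15 against 0.16) it is close to the median. All 504 alternative values of single named genes stayed within 1 SD, which for these genes is also wide. The 5 gene ratios that exceeded their spread over library sets as reported each fell within it under some of the 39 settings. Leaving out 1 library set at a time gave a median member log2 ratio between 0.01 and 0.08 by Myc, 0.07 and 0.21 by S phase, 0.15 and 0.28 by G2 and M phase, and 0.04 and 0.17 by Mex3a. The 39 settings in each comparison share most cells. Over them, the members at least 1.2-fold higher numbered 0 to 7 by Myc and 7 to 16 by S phase. By G2 and M phase they numbered 9 to 23 (23 without library set 3), and by Mex3a 7 to 17 (7 without library set 1). Those lower numbered 0 to 2, 0 to 2, 0 to 4 and 2 to 12 in the same order. The share of all genes higher by this fold also moved, at 9.61 to 17.04% by Myc and 15.38 to 22.81% by S phase. By G2 and M phase this share was 18.37 to 26.96%, and by Mex3a 11.09 to 26.76%. The share of all genes lower was 18.99 to 34.97%, 25.64 to 37.49%, 29.9 to 42.96% and 24.13 to 49.44% in the same order. The members' median exceeded that of genes counted at least as often as the lowest member in 31 of 39 settings by Myc and in 39 of 39 by each of the other comparisons, by at most 0.04, 0.15, 0.16 and 0.17 by Myc, S phase, G2 and M phase and Mex3a. The causes were not tested. Depth limits the sparse members, since 4 of them had a median of 0 counts per cell.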

Other observations

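The genes whose level ran most against the summed member level were mostly long genes. Among 7442 genes, the lowest r values were those of Nlgn1 (-0.552), Gm13822 (-0.539), Cpne4 (-0.531) and Npas3 (-0.529), among which Nlgn1 encodes a synaptic adhesion protein and Npas3 a transcription factor. The 10 lowest had a median genomic span of 502 kb, against 0.853 kb for the 10 with the highest r, 31.8 kb over the 7442 genes and 14.3 kb over the members. Gm13822 was the exception, at 5.96 kb, and the next shortest spanned 385 kb. These genes were chosen after their values were seen, and the part of gene span in their r was not tested.

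Relative to mean level, the library sets differed more in the sparse members Rrp12 and Rrn3 than in the abundant Npm1. Set means of Rrp12 lay between 3.91 and 40.3 CPM and those of Rrn3 between 11.9 and 71.3 CPM, while those of Npm1 lay between 516 and 584 CPM. In CPM the order was the reverse, with an SD over sets of 11.1 for Rrp12, 17.3 for Rrn3 and 23.9 for Npm1. The part of counting error in these spreads was not tested.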
